A study of Caenorhabditis elegans with 18 samples.

Results

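The change with age was examined in *Caenorhabditis elegans* fed on *Lactobacillus rhamnosus* CNCM I-3690, by setting the 3 arrays of worms fed for 10 days against the 3 arrays of worms fed for 3 days, 6 of the 18 arrays of the series. The arrays were taken by their labels alone, and all 22625 probe sets were compared. Every worm was of the wild-type strain N2, and a sample is RNA of whole worms, so that gut, muscle, skin, nervous system and germ line are read together. According to the Methods, worms were grown from embryos of gravid adults raised on the same bacteria, and the worms of 3 days are called young adults. The sources used here do not say how offspring were kept apart from the worms of 10 days, and in RNA of a whole animal fewer cells of a type and less RNA per cell cannot be told apart. The other 12 arrays hold the same strain at the same times on the usual laboratory food *E. coli* OP50 or on another *L. rhamnosus*, CNCM I-4317, 3 arrays each. They enter the model for the spread and 2 tests of whether the change on CNCM I-3690 differed from that on another diet.

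A young adult hermaphrodite of *C. elegans* carries a fixed store of sperm, made before the switch to oocytes, and uses it up as it lays eggs. The cuticle is built of collagens laid down mostly around the molts and early in adult life. As worms age, the body wall muscle and the gut deteriorate, and yolk goes on being made after egg laying has stopped. Insulin-like signaling through the receptor DAF-2 restrains the transcription factor DAF-16, whose targets include small heat shock proteins, metallothionein, antimicrobial genes and superoxide dismutase.

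Values below are log2 expression, each from 1 array and 1 probe set, so a difference of 1 is a doubling of the signal, and small signals are compressed near the floor of the arrays. The change is always 10 days minus 3 days. A probe set was called when its Benjamini-Hochberg adjusted p from limma was under 0.01. "Rose" and "fell" are used for called changes only. Each array has a sample label of its own. The Methods speak of biological replicates, but of more per condition than the 3 read here, and if arrays share a culture the p-values measure only the spread between these arrays. Across probe sets, r between 2 arrays of CNCM I-3690 was 0.9877 to 0.996 within a time and 0.943 to 0.9702 between the times. Replicate 3 of 3 days stood apart. Over all 18 arrays, 59.5% of the variance lay on a first component on which the 10-day arrays of CNCM I-3690 were at 26.3, 39.3 and 46.2, and the 3-day arrays at -65.0, -65.4 and, for replicate 3, -44.3. The 3-day arrays of CNCM I-4317 were at -57.2, -48.7 and, for replicate 3, -31. The deviations of these 2 replicates 3 from their group means correlated with r of 0.474, and the cause was not tested. Of the called probe sets, 71% had replicate 3 as the 3-day array nearest to the 10-day arrays, and 3050 of 3459 were called with the same sign without it.

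From 3 to 10 days, 1771 probe sets rose (7.83% of the array) and 1688 fell (7.46%), together 3459 or 15.3%. Large falls were more numerous than large rises. Of the called probe sets, 383 fell and 102 rose by more than 2 on the log2 scale. All 3 arrays of one time lay above all 3 of the other for 8916 probe sets (39.4%), and for 3453 of the 3459 called. Rises made up 51.2% of the calls, against 61.0% when arrays were centred on their medians and 30.5% after cyclic loess, so the balance of rises and falls depends on the scaling. The median over all probe sets was 0.04, and 0.13 and 0.00 under those scalings. The count of calls was 2054 and 2069 without replicates 1 and 2 of 3 days and 2212 without replicate 2 of 10 days. Counted by gene, with 1 probe set for each of 17118 genes, 1448 rose (8.46%) and 1325 fell (7.74%). The counts of the gene groups below are read against these shares.

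**Figure D1:**
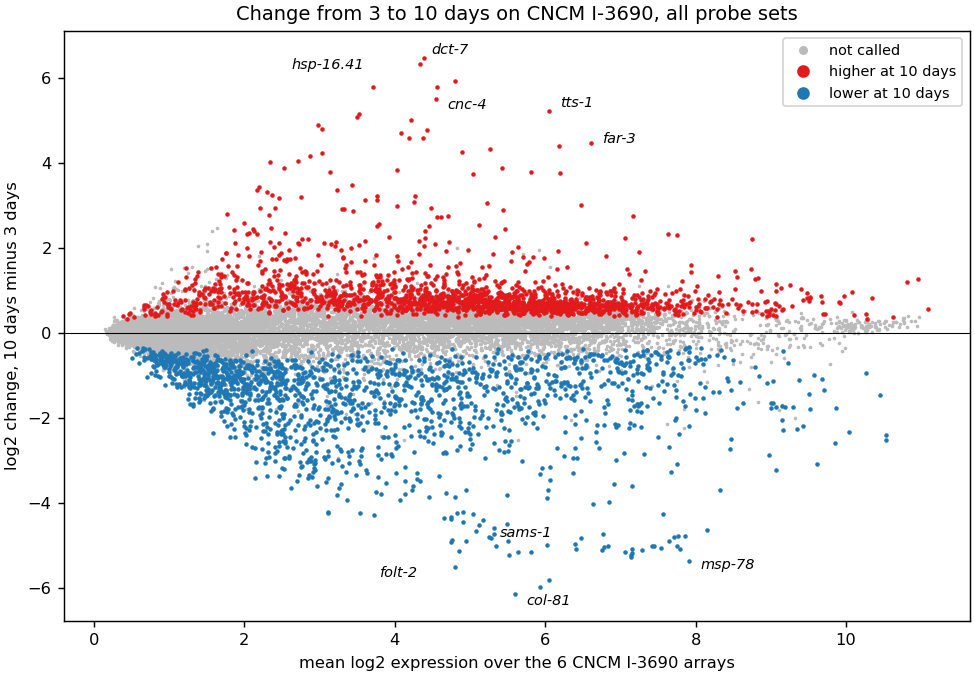
Change from 3 to 10 days on CNCM I-3690 (vertical axis, log2) against the mean log2 expression over the 6 arrays (horizontal axis), 1 point per probe set, with called probe sets in red (1771 higher at 10 days) and blue (1688 lower). Called falls of more than 2 outnumber called rises of that size (383 against 102), and among probe sets of high expression many rises are smaller than 1.

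The 15 largest rises and falls were taken among called probe sets with 1 symbol whose arrays did not overlap between the times. The mean of the higher group also had to be over the median of all values, 1.32. That these genes do not overlap between the times thus follows from the choice. Of the 15 genes that rose most, all but *tts-1* and *far-3* had a mean of 2.08 or less at 3 days. *dct-7*, which is named as a gene controlled by DAF-16, was at 1.31, 1.08 and 1.08 on the 3-day arrays and at 7.30, 7.86 and 7.71 on the 10-day arrays. This is a change of 6.47 (standard error 0.51, adjusted p = 3.59e-07 by limma). The small heat shock proteins, chaperones that hold unfolded proteins, followed. *hsp-16.41* was at 1.96, 1.28 and 0.29 at 3 days and at 7.77, 7.73 and 6.97 at 10 days, and *hsp-16.2* went from 2.67, 1.94 and 0.89 to 7.61, 8.32 and 7.38. On both, replicate 3 was the lowest of the 3-day arrays, and no array of one time came near the other time. The inducible *hsp-70* was at 2.32, 1.92 and 0.95 at 3 days and at 5.70, 7.52 and 6.06 at 10 days, a change of 4.70 with a wider standard error of 0.87 (adjusted p = 0.000898).

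4 caenacins, small glycine-rich peptides of the epidermis with antimicrobial roles, were among the 15 largest rises. *cnc-7* was at 0.73, 0.79 and 0.91 and then at 5.86, 6.89 and 7.05, and *cnc-4* at 1.78, 1.75 and 1.86 and then at 6.92, 7.64 and 7.34. *cnc-2* and *cnc-6* rose by 5.0 and 4.79. On each of these 4 genes the 10-day arrays spread more than the 3-day arrays. *tts-1*, a noncoding transcript found on ribosomes of long-lived worms, was at 3.28, 2.97 and 4.06 and then at 8.25, 8.91 and 8.8, a change of 5.22 (standard error 0.43, adjusted p = 5.55e-07). *far-3*, a fatty acid and retinol binding protein, went from 4.05, 4.41 and 4.67 to 8.86, 8.75 and 8.91. The rest of the 15 were *srlf-34* (5.79), *C54C8.12* (5.14), *F15E6.3* (5.08), *scl-2* (4.59), of the family of secreted SCP proteins, and *ora-1* (4.58). *C54C8.12* had the most even arrays, with 0.91, 0.98 and 0.95 at 3 days and 6.05, 6.16 and 6.07 at 10 days.

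**Figure D2:**
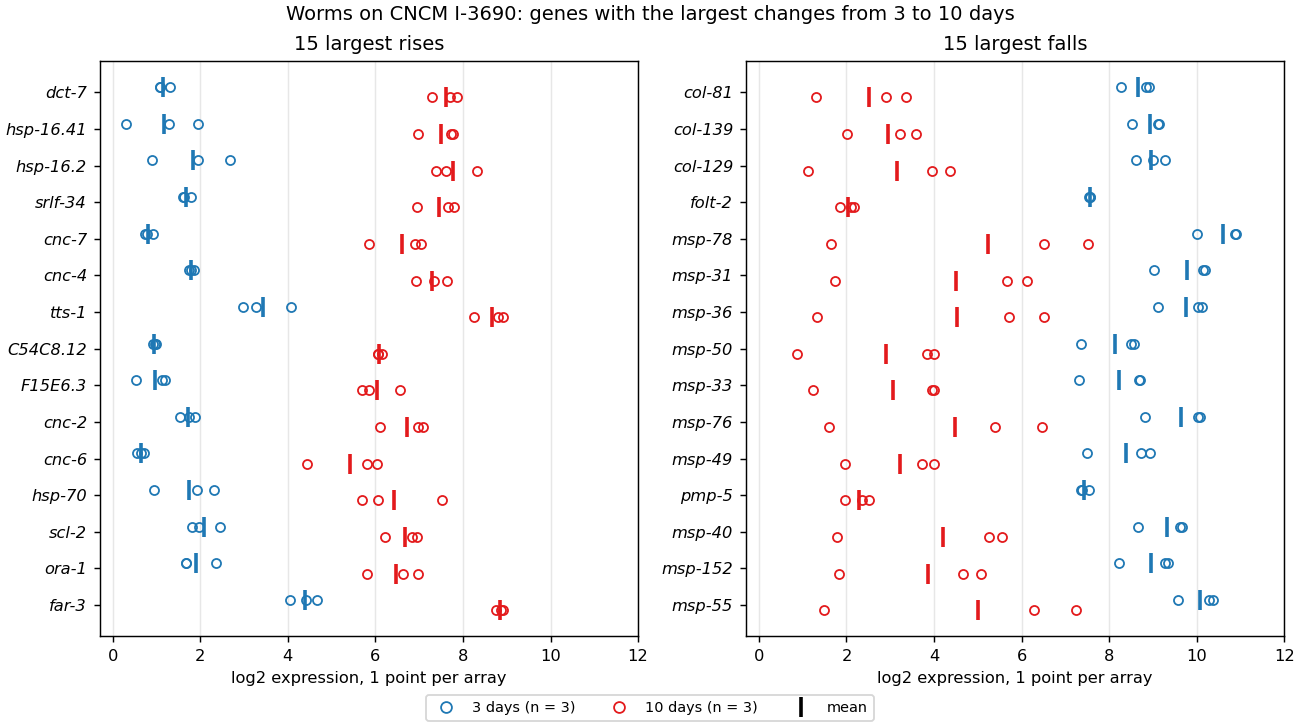
Log2 expression on each array of CNCM I-3690 for the 15 genes with the largest rises (left) and the 15 with the largest falls (right), with blue circles for the 3 arrays of 3 days, red circles for the 3 arrays of 10 days and a bar at each mean. In the *msp* genes on the right, the 10-day arrays lie far apart, from 7.53 to 1.64 for *msp-78*, while those of *folt-2* lie close together at both times, from 1.86 to 2.16 at 10 days.

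The largest falls were those of 3 cuticle collagens. *col-81* was at 8.92, 8.83 and 8.26 at 3 days and at 2.91, 3.36 and 1.3 at 10 days (change -6.15, standard error 0.50, adjusted p = 5.05e-07), and *col-139* and *col-129* changed by -5.98 and -5.82. *folt-2*, which encodes a folate transporter, was at 7.56, 7.53 and 7.57 and then at 2.16, 1.86 and 2.11. Both sets of arrays were tight, and the change was -5.51 (standard error 0.30, adjusted p = 8.68e-09). *pmp-5*, an ABC transporter of the peroxisomal family, went from 7.38, 7.53 and 7.35 to 2.36, 2.51 and 1.97. The other 10 of the 15 largest falls were all *msp* genes.

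Most of the sperm genes fell, and their 10-day arrays differed among themselves. Of 76 measured sperm genes, 44 fell (57.9%), 1 rose and 31 did not pass the test, with a median of -1.84. The major sperm proteins, which form the cytoskeleton that moves nematode sperm, account for 23 of the falls, with 23 measured and a median of -5.02. *msp-50* was at 8.56, 8.5 and 7.35 at 3 days and at 4.0, 3.83 and 0.88 at 10 days, a change of -5.23 (standard error 0.80, adjusted p = 0.000179). *msp-78* was at 10.87, 10.90 and 10.01 and then at 7.53, 6.52 and 1.64. Replicate 3 was the lowest array at both times, and on *msp-78* the first 2 arrays of 10 days were nearer to the 3-day arrays than to replicate 3. The call of *msp-78* (adjusted p = 0.00545) was lost without replicate 1 or 2 of 3 days and without replicate 3 of 10 days (adjusted p up to 0.0266).

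*gsp-3*, a phosphatase of sperm, was at 5.47, 5.46 and 2.89 and then near the floor on all 10-day arrays, at 1.13, 1.33 and 1.17, and its close paralog *gsp-4* fell by 2.80 on the log2 scale. *nspd-4*, of a family of small proteins in sperm, fell from 7.41, 7.49 and 5.91 to 3.20, 2.85 and 1.65, with 5 of 6 *nspd* genes called. The *spe* genes, found through mutants with defective sperm, moved less, with a median of -0.12. Of 29 *spe* genes 2 fell, which is near the share of all genes that fell (7.74%). *spe-5*, a subunit of the vacuolar ATPase, was the 1 gene of the list that rose (1.23, adjusted p = 0.000242). The mean level of the list on each array was 4.87, 4.81 and 3.93 at 3 days and 2.77, 2.55 and 1.5 at 10 days. On OP50 it was 2.91, 2.49 and 2.37 at 3 days, below all 3 arrays of CNCM I-3690, and 1.46, 1.66 and 1.47 at 10 days.

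All 23 *msp* probe sets carry a suffix letter, the maker's mark of a probe set that can bind several members of a family, so the members cannot be read apart. The 47 sperm genes read by such probe sets had a median of -4.25 with 36 that fell, and the other 29 a median of -0.20 with 8 that fell. The count of 44 was 27 without replicate 1 or 2 of 3 days or replicate 3 of 10 days.

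Genes of the oocyte and the eggshell rose by small amounts that were even between arrays. Of 14 eggshell genes, 10 rose (71.4%) and none fell, with a median of 0.66. *cpg-3*, a chondroitin proteoglycan of the eggshell, was at 8.17, 8.17 and 8.14 and then at 9.30, 9.49 and 9.47 (change 1.26, adjusted p = 1.09e-05), and *cpg-2* and *egg-2*, a receptor-like protein of the egg surface, each rose by 0.96. *perm-4* and *perm-2*, of the permeability barrier, rose by 0.86 and 0.83. Of 38 oocyte and germ-line regulators, 19 rose (50%) and none fell, with a median of 0.51.

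The largest rise among these regulators was that of *lin-41*, which controls oocyte growth, from 5.35, 5.21 and 5.56 to 6.18, 6.44 and 6.69. The meiotic axis protein *htp-3* rose by 0.80, the RNA-binding proteins of maternal messages *pos-1* and *puf-7* by 0.77 and 0.75, and the Nanos homolog *nos-2* by 0.75. Of 51 genes of DNA replication and cell division, 12 rose (23.5%) and none fell, with a median of 0.39. They included the centromeric histone *hcp-3* (0.88), cyclin E *cye-1* (0.79), *cdk-1* (0.74) and the checkpoint gene *san-1* (0.72). The mean level of the regulators was 6.86, 6.79 and 6.99 at 3 days and 7.34, 7.36 and 7.37 at 10 days, so the arrays did not overlap, and replicate 3 was again the 3-day array nearest to 10 days.

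After cyclic loess these 3 groups kept positive medians, at 0.44, 0.27 and 0.14, with 6, 8 and 5 rises. The call of *nos-2* was lost there (adjusted p = 0.0113). The counts were 6, 11 and 5 without replicate 1 of 3 days, 6, 10 and 5 without replicate 2 of 3 days, and 6, 11 and 7 without replicate 2 of 10 days. Without replicate 3 of 10 days, 6 eggshell genes and 12 regulators rose.

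Of 18 embryo markers none passed limma's test in either direction, and 10 of them had means under 1.5 at both times, near the floor. Their median was -0.04. Over the whole array, 7586 probe sets (33.5%) had an unadjusted p under 0.05. The endoderm genes *end-1* and *end-3*, which are switched on in early embryos, were at 2.14, 2.07 and 2.45 and at 1.76, 1.52 and 1.89 at 3 days, and at 2.0, 1.64 and 1.84 and at 1.66, 1.80 and 1.89 at 10 days. The arrays of *end-3* overlap between the times, and those of *end-1* were lower at 10 days without overlap or a call (-0.40, adjusted p = 0.0928). Of 20 molting and larval genes, 2 fell and none rose, *mlt-7*, a peroxidase of the molt, by -1.09 and the protease *nas-37* by -0.97. The call of *nas-37* ended without replicates 1 or 2 of either time (adjusted p up to 0.0289).

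The yolk proteins moved in different directions. Of 5 measured vitellogenins, *vit-1* fell, from 9.80, 9.73 and 10.07 to 8.76, 7.83 and 8.02 (-1.66, adjusted p = 0.000244). *vit-5* rose, from 10.74, 10.76 and 10.94 to 11.37, 11.47 and 11.29 (0.56, adjusted p = 0.00419). Its call was lost after cyclic loess and without replicate 1 or 2 of either time (adjusted p up to 0.0229). *vit-4* and *vit-6* were at 0.38 and 0.34 (adjusted p = 0.0252 and 0.0286) and *vit-2* at 0.03 (adjusted p = 0.925).

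The structural genes of the skin fell. Of 146 cuticle collagens, 70 fell (47.9%) and none rose, with a median of -1.09. Besides the 3 genes above, *col-142* fell from 7.99, 7.86 and 7.40 to 3.56, 3.02 and 3.14, and *col-19*, a collagen of the adult cuticle, from 8.76, 8.90 and 8.88 to 5.70, 4.49 and 4.36. The mean over the list was 4.29, 4.42 and 4.15 at 3 days and 3.19, 2.83 and 2.96 at 10 days. Leaving out an array changed the count to 46 and 40 (replicates 1 and 2 of 3 days) and to 38 and 46 (replicates 2 and 3 of 10 days).

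The basement membrane, the sheet of matrix under skin and around muscle and gut, fell as well, with 10 of 16 genes (62.5%), none that rose and a median of -1.1. *unc-52*, the perlecan that anchors muscle, was at 6.07, 5.98 and 6.01 and then at 3.04, 2.52 and 2.13 (-3.45, standard error 0.43, adjusted p = 2.89e-05). The laminin *epi-1* fell by 2.97 on the log2 scale, the type IV collagens *let-2* and *emb-9* by 2.29 and 1.93, and fibulin *fbl-1* by 1.95.

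Muscle genes had the highest share of falls of any list. Of 34 muscle markers, 29 fell (85.3%) and none rose, with a median of -1.85. The body wall myosins *myo-3* and *unc-54* fell from 4.40, 4.80 and 4.29 to 2.40, 2.41 and 1.96, and from 8.43, 8.32 and 8.07 to 6.46, 5.89 and 5.93. Troponin I *tni-3* and troponin T *mup-2* each changed by -2.33 (adjusted p = 2.25e-06 and 0.00019), and *dim-1*, which stabilises the thin filaments, by -2.48. The pharyngeal myosin *myo-1* was at -2.82 (adjusted p = 0.00363), a call that ended without replicate 1 or 2 of 3 days or 2 or 3 of 10 days (adjusted p up to 0.019).

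On the arrays of 10 days the list lay at 5.31, 4.91 and 4.87, and on those of 3 days at 6.85, 6.82 and 6.52. Its count was 16 and 19 without replicates 1 and 2 of 3 days and 16 without replicate 2 or 3 of 10 days. Of 41 neuron markers 3 fell and 2 rose, with a median of -0.07, but 22 of them had means under 1.5 at both times, where a fall could hardly be read, against none of the muscle markers. The difference between these lists was not tested. The calls were among others *mec-12*, a tubulin of touch neurons (-1.06), the enzyme of GABA synthesis *unc-25* (-0.81), the tyrosine decarboxylase *tdc-1* (0.70) and synaptobrevin *snb-1* (0.54, adjusted p = 0.0569 after cyclic loess). Of 57 neuropeptide genes 2 fell and 1 rose, *nlp-39*, from 0.68, 0.63 and 0.47 to 4.28, 4.57 and 4.56 (3.87, standard error 0.16, adjusted p = 7.39e-10).

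**Figure D3:**
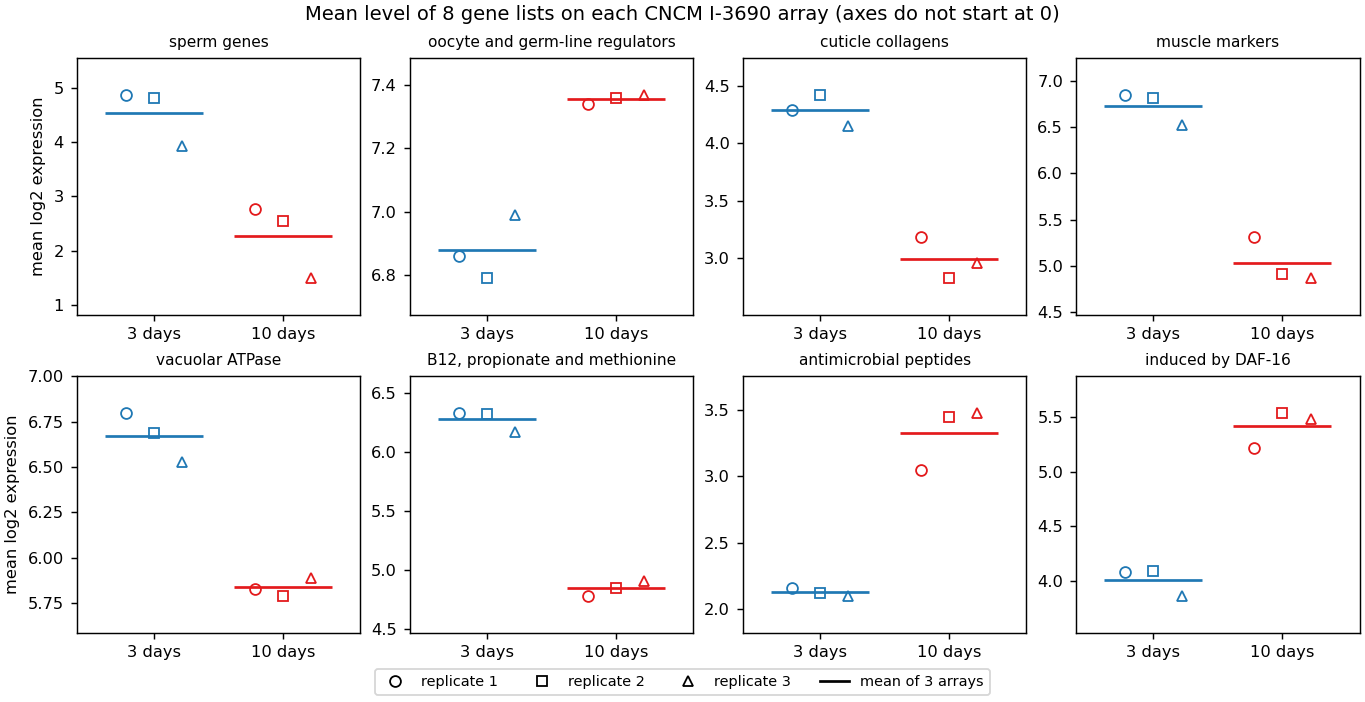
Mean log2 expression over the measured genes of 8 lists on each CNCM I-3690 array (vertical axes, which do not start at 0), with blue for 3 days, red for 10 days, a symbol for each replicate and a line at the mean of 3 arrays. No list overlaps between the times, and replicate 3 of 3 days (triangle) lies nearest to 10 days in 6 of the 8.

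In the gut, genes of uptake and acidification fell. Of 23 intestine markers, 14 fell (60.9%) and 1 rose, with a median of -0.81. The peptide transporter *pept-1* was at 5.83, 5.58 and 5.45 and then at 1.90, 1.61 and 2.13 (-3.74, adjusted p = 3.1e-05). The proton exchanger *nhx-2* fell from 3.46, 3.36 and 3.15 to the floor at 0.64, 0.70 and 0.80. The intermediate filaments *ifc-1* and *ifb-2* and the brush border actin *act-5* fell by 3.37, 2.22 and 2.58 on the log2 scale. The vacuolar ATPase, the proton pump of lysosomes, gut and skin, fell in 13 of 19 subunits (68.4%), with a median of -1.14.

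Of its subunits, *vha-6*, made in the gut, was at 6.92, 6.85 and 6.58 and then at 5.21, 4.64 and 4.84. *vha-12* and *vha-13*, the B and A subunits, changed by -1.38 and -1.46, and *vha-20* by -1.26. The 1 subunit of this list that rose was *vha-18* (0.50, adjusted p = 0.00141), whose call was lost after cyclic loess (adjusted p = 0.0444) and without replicate 1 of 3 days. The subunit *spe-5*, given above among the sperm genes and not in this list, rose by 1.23. Of 56 gut and lysosomal proteases, 9 fell and 3 rose. The proline carboxypeptidase-like *pcp-3* and the neprilysin-like *nep-17* fell by 2.23 each on the log2 scale, and the aspartyl protease *asp-13* by 1.69. *asp-17*, of the same family, rose from 1.6, 1.40 and 1.17 to 3.29, 3.37 and 3.53, and the cathepsin B homolog *cpr-1* rose by 1.33.

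Genes of energy metabolism in mitochondria fell. Of 66 genes of the respiratory chain and ATP synthase, 26 fell (39.4%) and none rose, with a median of -0.40. *gas-1*, a subunit of complex I, was at 6.59, 6.68 and 6.39 and then at 5.19, 5.07 and 5.17 (-1.41, adjusted p = 1.21e-05). *ucr-2.2* of complex III fell by 1.84 on the log2 scale, and the ATP synthase subunits *asb-2* and *asg-2* by 1.58 and 1.3. A cytochrome c, *cyc-2.2*, was at 4.59, 4.63 and 2.23 at 3 days, with replicate 3 far below the others, and at 0.92, 0.86 and 0.47 at 10 days. After cyclic loess 43 fell.

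Of 22 genes of the tricarboxylic acid cycle and its entry, 15 fell (68.2%) and 1 rose, with a median of -0.64. The succinyl-CoA synthetase subunits *suca-1* and *sucl-1* changed by -1.57 and -1.3, the shared dehydrogenase subunit *dld-1* by -1.06 and *pdhb-1* of pyruvate dehydrogenase by -0.95. The isocitrate dehydrogenase subunits went opposite ways, *idhg-2* with -1.62 and *idhg-1* with 0.51 (adjusted p = 0.00752), a call lost after cyclic loess and without any of the arrays but replicate 3 of 3 days (adjusted p up to 0.177). Of 20 genes of glycolysis and the glyoxylate cycle, 8 fell, such as aldolase *aldo-1* (-1.88), pyruvate kinase *pyk-2* (-1.69) and lactate dehydrogenase *ldh-1* (-1.17). *icl-1*, the enzyme of the glyoxylate cycle, rose from 7.26, 7.31 and 7.07 to 8.37, 8.51 and 8.40. Its adjusted p of 0.00975 was over 0.01 without any 1 of the 6 arrays and after cyclic loess, where it was 0.0423.

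Lipid genes were called in both directions. Of 32 genes of fatty acid synthesis, desaturation and elongation, 8 fell (25%) and 2 rose. The delta-9 desaturase *fat-7*, which makes oleic acid from stearic acid, was at 7.0, 7.28 and 6.22 and then at 2.14, 2.44 and 2.82 (-4.37, standard error 0.37, adjusted p = 6.99e-07). 4 of 8 elongases fell. The palmitate elongase *elo-2* fell from 6.89, 6.82 and 6.32 to 3.90, 3.51 and 3.80, and *elo-5* and *elo-6*, which make branched fatty acids, by 2.85 and 2.82 on the log2 scale. The desaturases *fat-5* and *fat-3* rose by 1.39 and 1.01.

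Among 87 genes for lipases or for breaking down fatty acids, 16 fell (18.4%) and 9 rose. The acyl-CoA dehydrogenases *acdh-2* and *acdh-9* fell by 3.02 and 2.77 on the log2 scale and the acyl-CoA synthetase *acs-5* by 2.45. The lysosomal lipase *lipl-1* was near the floor at 0.80, 0.86 and 0.96 and rose to 3.96, 4.17 and 4.01 (3.17, adjusted p = 5.38e-07), and *acs-20* rose by 1.61. Among 17 carriers of fatty acids and retinol, 4 of the *lbp* family fell, such as *lbp-6* (-1.88) and *lbp-7* (-2.0), and *far-3* and *far-7* (0.96) rose.

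Most genes of propionate breakdown and of the methionine cycle, which respond to vitamin B12 in the food, fell. Of 21 measured, 14 fell (66.7%), none rose and 7 did not pass, with a median of -1.14. The medians on OP50 and CNCM I-4317 were -0.57 and -0.945, with 6 and 10 falls. *acdh-1*, the first enzyme of the propionate shunt that works without the vitamin, was at 9.16, 9.18 and 9.07 at 3 days and at 3.52, 4.73 and 4.97 at 10 days (-4.73, standard error 0.49, adjusted p = 4.98e-06). The later shunt enzymes *hphd-1* and *ech-6* fell by 3.89 and 2.19 on the log2 scale, and *nhr-68*, a nuclear receptor that switches the shunt on, by 2.36. *sams-1*, which makes the methyl donor S-adenosylmethionine, was at 8.56, 8.75 and 8.63 and then at 4.95, 4.53 and 4.38. The 3-day arrays of these 4 enzymes lie close together, and none overlaps with 10 days.

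Antimicrobial peptide genes were called as rises more often than as falls. Of 40 antimicrobial peptide genes, 15 rose (37.5%) and 3 fell, with a median of 0.40. They included 5 of 8 caenacins and 5 of 10 antimicrobial *nlp* genes. *abf-2*, an antibacterial factor, was at 0.78, 0.77 and 0.50 and then at 4.28, 5.09 and 4.83 (4.05, standard error 0.22, adjusted p = 8.65e-09). The falls included *fipr-21* and *fipr-2*, with -1.86 and -1.74, and that of *fipr-2* (adjusted p = 0.00592) was lost without replicate 1 or 2 of 3 days or any array of 10 days (adjusted p up to 0.0373). The list lay at 2.16, 2.12 and 2.1 at 3 days and at 3.05, 3.45 and 3.48 at 10 days. It counted 8 and 9 rises without replicates 2 and 3 of 10 days, and 5 of 20 in probe sets without a suffix letter.

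Of 18 saposin-like proteins, which act on membranes, 6 rose (33.3%) and 2 fell. *spp-12* was at 0.89, 0.84 and 1.03 and then at 6.07, 4.78 and 4.59, *spp-8* rose by 1.56, and *spp-18* and *spp-23* fell by 2.13 and 2.1 on the log2 scale. Of 16 lysozymes, enzymes that cut bacterial walls, 2 rose and 3 fell. *ilys-3* rose from 1.19, 1.05 and 1.52 to 4.50, 5.50 and 5.09, and *lys-7*, a target of DAF-16, from 5.57, 5.04 and 5.86 to 7.23, 7.87 and 7.71. The falls of *lys-4* (-1.81, adjusted p = 0.00895) and *lys-1* (-0.82, adjusted p = 0.00464) were lost without replicate 1 or 2 of 3 days or any array of 10 days, and that of *lys-4* also without replicate 3 of 3 days (adjusted p up to 0.0324 and 0.0309), and that of *lys-6* (-1.08) was kept in each of these fits.

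C-type lectins bind sugars, and their calls were near the background. Of 220, 17 fell (7.73%) and 9 rose (4.09%), close to the shares of all genes or below them, with a median of 0.03, and 170 of them had means under 1.5 at both times. *clec-51*, *clec-265* and *clec-56* fell by 2.71, 2.66 and 2.02 on the log2 scale, and *clec-266* and *clec-190* rose by 2.03 and 1.96. The call of *clec-266* (adjusted p = 0.0016) was lost without replicate 2 of 3 days or replicate 3 of 10 days (adjusted p up to 0.0127). The falls numbered 11 without replicate 2 of 3 days and 10 without replicate 3 of 10 days. Of 12 galectins 4 fell (33.3%) and none rose, led by *lec-10*, from 8.22, 7.83 and 7.54 to 5.73, 5.50 and 5.87, with *lec-9* at -1.62 and *lec-2* at -1.73.

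Stress proteins were called in both directions. Of 12 small heat shock proteins, 4 rose and 4 fell. Besides the *hsp-16* genes, *sip-1*, made in oocytes and embryos, rose from 10.27, 10.23 and 10.48 to 11.57, 11.58 and 11.62 (1.26, adjusted p = 7.13e-07). *hsp-12.6* was at 1.33 (adjusted p = 0.00219, up to 0.0139 without replicate 1 of 3 days or 1 or 2 of 10 days). *hsp-25*, found in muscle, fell by 1.44 on the log2 scale, and *hsp-12.2* was at -2.38 (adjusted p = 0.00359, up to 0.0187 without replicate 1 or 2 of 3 days or 2 or 3 of 10 days). In the endoplasmic reticulum, 6 of 16 chaperones and sensors fell (37.5%) and 1 rose. *pdi-2*, an isomerase that also serves in collagen hydroxylation, fell from 7.78, 7.68 and 7.75 to 6.52, 6.46 and 6.27, and the BiP homolog *hsp-3* from 7.16, 7.19 and 7.06 to 6.21, 6.11 and 5.94.

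The count of these falls was 2 without replicate 1 of 3 days and 3 without replicate 3 of 3 days or replicate 2 of 10 days. *ire-1*, the sensor of unfolded protein, was at 0.62 (adjusted p = 0.00458), a call lost after cyclic loess and in 5 of the 6 fits without an array (adjusted p up to 0.055). The list of 27 cytosolic chaperones also holds *hsf-1*, the heat shock transcription factor, which is not a chaperone. *hsp-70* and *hsf-1* rose. *hsf-1* was at 0.66 (adjusted p = 0.00614), and its call was lost after cyclic loess and without replicate 1 or 2 of either time (adjusted p up to 0.0647). Of 28 antioxidant enzymes 3 fell and 2 rose, close to the shares of all genes, with the glutathione peroxidases *gpx-7* (-1.33) and *gpx-5* (-1.24) among the falls, and the thioredoxin reductase *trxr-1* (1.45) and the extracellular superoxide dismutase *sod-4* (0.97) as the rises. The mitochondrial superoxide dismutase *sod-3* was at 1.89, 2.18 and 2.03 and at 2.07, 1.95 and 1.96 (-0.04, adjusted p = 0.884), with a change of 0.05 when arrays were centred on their medians.

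Genes of detoxification were called in both directions. Of 73 cytochromes P450, 15 rose (20.5%) and 1 fell, *cyp-34A8* with -0.91. Of the 73, 44 had means under 1.5 at both times, where a fall could hardly be read. *cyp-35C1* was at 3.16, 3.04 and 2.84 and then at 6.17, 5.77 and 5.92 (2.94, standard error 0.17, adjusted p = 2.22e-08), and 4 of 10 genes of the *cyp-35* subfamily rose. *cyp-14A3* rose by 3.31, *cyp-35B1* by 2.95, *cyp-34A9* by 2.92 and *cyp-37A1* by 2.22. Of 64 UDP-glucuronosyltransferases, which attach a sugar to toxic compounds, 13 fell (20.3%) and 5 rose (7.81%). *ugt-47* fell from 4.55, 4.66 and 4.48 to 1.5, 1.35 and 1.14, and *ugt-46* and *ugt-62* by 2.72 and 2.23 on the log2 scale, while *ugt-25* rose by 2.51 and *ugt-66* by 1.73.

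Of 45 glutathione S-transferases 5 fell and 3 rose, close to the shares of all genes, with a median of -0.08. Of the 45, 20 had means under 1.5 at both times. Among the calls were *gst-26* (-3.79), *gst-27* (-2.77), *gst-28* (-2.51) and *gst-24* (1.12). The call of *gst-24* was lost in a limma fit of the CNCM I-3690 arrays alone (adjusted p = 0.0109). Metal-binding genes included 4 rises and 1 fall among 24. The metallothionein *mtl-1* was at 0.34, 0.36 and 0.29 and then at 3.76, 4.95 and 4.36, and the ferritin *ftn-1* at 2.06, 2.12 and 1.94 and then at 4.55, 5.59 and 5.39. The other ferritin, *ftn-2*, fell, from 8.38, 8.42 and 8.14 to 7.34, 7.41 and 7.15. The rises of *mtl-2* (0.99, adjusted p = 0.00712) and *cdr-4* (1.27, adjusted p = 0.00627) were lost after cyclic loess (adjusted p = 0.063 and 0.0272), and without replicate 3 of 3 days or 1 or 2 of 10 days among others.

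**Figure D4:**
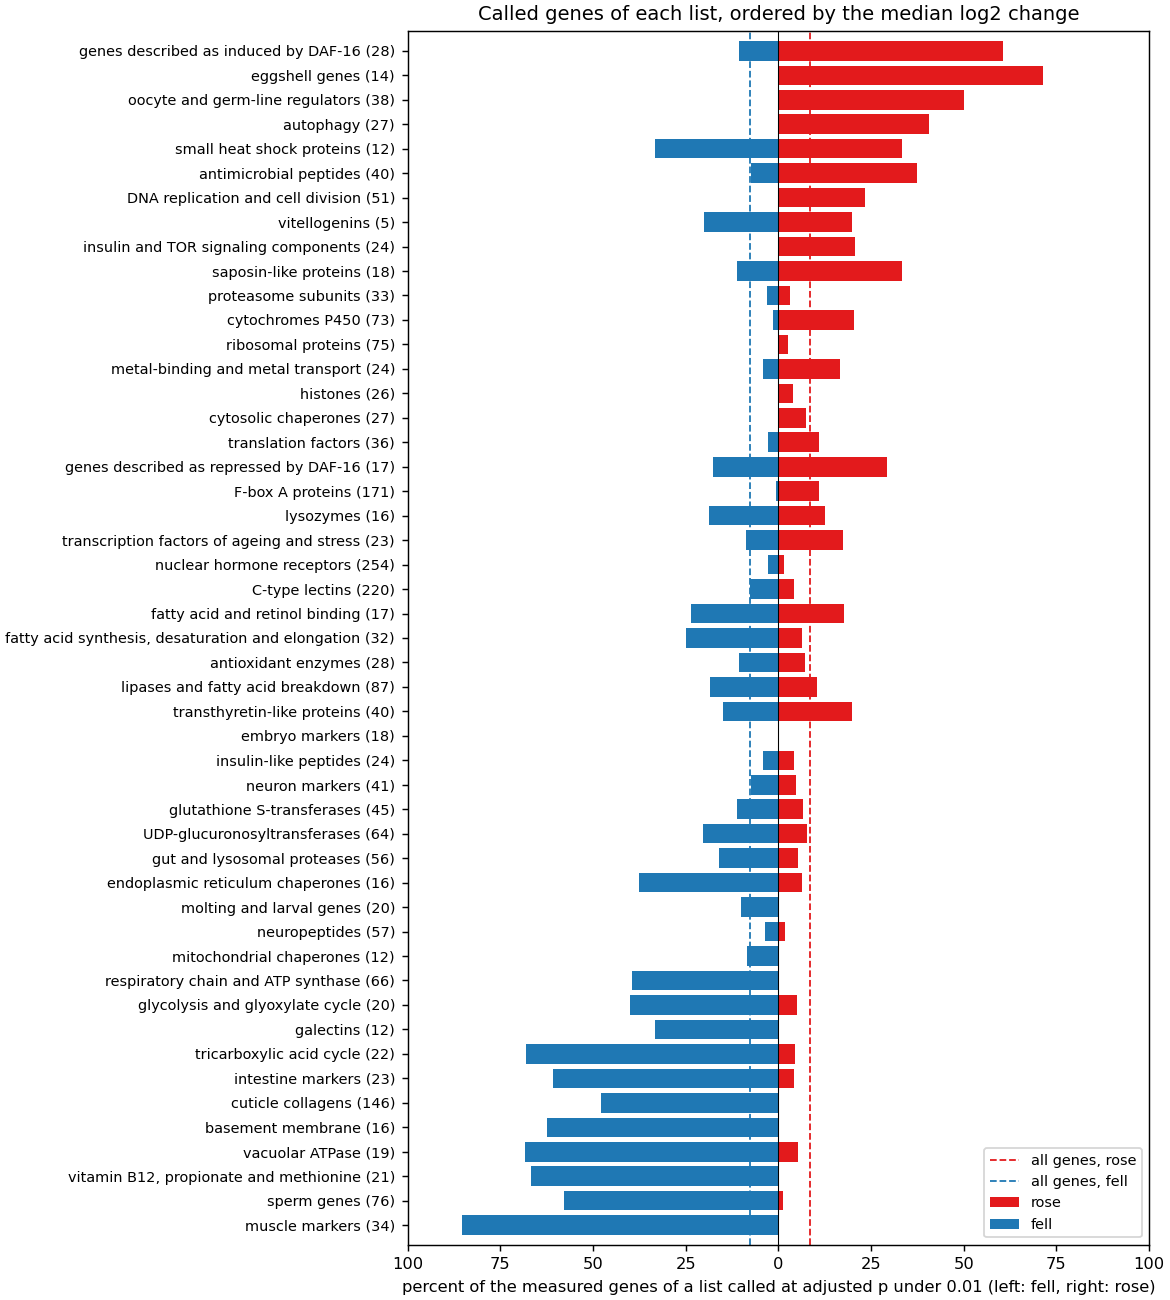
Percent of the measured genes of each list that rose (red, to the right) or fell (blue, to the left) at an adjusted p under 0.01, with lists ordered by median change, the number of measured genes in brackets and dashed lines at the shares of all genes (8.46% and 7.74%). Muscle markers have the highest share of falls (85.3%) and eggshell genes the highest share of rises (71.4%).

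Genes described as targets of DAF-16 are of interest because the study tested this pathway. Of 28 genes described as induced by DAF-16, 17 rose (60.7%) and 3 fell, with a median of 1.24. Besides *hsp-16.2*, *hsp-16.41*, *tts-1*, *mtl-1*, *lys-7* and *fat-5*, *dod-3* rose, from 1.66, 1.89 and 1.13 to 4.33, 4.63 and 5.78. *spp-1* was at 1.46 (adjusted p = 0.00204, up to 0.0118 without replicate 1 of 3 days or replicate 2 of 10 days). The falls included *fat-7* and the glyceraldehyde-3-phosphate dehydrogenase *gpd-2* (-0.82). Of 17 genes described as repressed by DAF-16, 5 rose (29.4%) and 3 fell, with a median of 0.085. The rises numbered 3 without replicate 2 of 10 days. Among the repressed genes the largest rise was that of *cyp-34A9* (2.92), given above among the detoxification genes. *dod-23* rose by 1.5 and the nuclease *nuc-1* by 0.95. *pept-1*, given above among the gut genes, had the largest fall of the list (-3.74), and *dod-19* fell from 7.49, 6.83 and 6.57 to 5.88, 5.11 and 5.27. *dod-22* was at 1.73 (adjusted p = 0.00172, and 0.0108 without replicate 2 of 10 days). On OP50 and CNCM I-4317 the induced genes had medians of 0.91 and 1.17 with 12 and 14 rises.

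Several parts of the signaling chain itself rose by small amounts. Of 24 components of insulin and TOR signaling, 5 rose (20.8%) and none fell, with a median of 0.25. *rict-1*, the Rictor subunit of TOR complex 2, was at 4.85, 4.79 and 4.86 and then at 5.88, 6.21 and 6.09 (1.23, adjusted p = 3.4e-06). The kinase *pdk-1* rose by 1.13. The kinase *akt-1* (0.69) and the adaptor *aap-1* (0.54) lost their calls after cyclic loess (adjusted p = 0.0189 and 0.0309), and *akt-1* also without replicate 2 of either time. Of 24 insulin-like peptides *ins-22* rose by 1.5 and *ins-33* fell by 0.96 on the log2 scale.

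Among 23 transcription factors of ageing and stress, 4 rose and 2 fell. *elt-6*, a GATA factor, rose by 0.85 and the Myc-family partner *mxl-2* by 0.78. *nhr-86* was at 0.94 (adjusted p = 0.00132, and 0.0109 without replicate 2 of 3 days, without which 2 of the factors rose). The skin GATA factor *elt-3* fell from 4.50, 4.47 and 4.28 to 3.43, 2.74 and 3.05, and the stress factor *atf-4* from 6.44, 6.61 and 6.35 to 4.69, 4.86 and 4.58. Of 27 autophagy genes, 11 rose (40.7%) and none fell, with a median of 0.46. The cargo receptor *sqst-1* was at 5.02, 4.85 and 4.95 and then at 6.72, 6.82 and 6.66 (1.79, adjusted p = 5.63e-06), *atg-16.2* rose by 1.15 and the Beclin homolog *bec-1* by 0.76. *atg-9* was at 1.15 (adjusted p = 0.0017, up to 0.0132 without replicate 1 of 3 days or 2 of 10 days). The count of autophagy genes was 6 after cyclic loess, 6 without replicate 1 or 2 of 3 days, 7 without replicate 1 of 10 days and 6 without replicate 2 of 10 days.

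The machinery of protein synthesis and breakdown showed few calls. Of 75 ribosomal proteins 2 rose, *rpl-23A.2* (0.38) and *rps-2* (0.32), with a median of 0.15 that turned to -0.02 after cyclic loess, where no ribosomal protein rose. Both calls (adjusted p = 0.00398 and 0.00816) were lost without replicate 1 or 2 of 3 days or any array of 10 days, and that of *rps-2* also without replicate 3 of 3 days (adjusted p up to 0.0206 and 0.0398). Of 36 translation factors 4 rose and 1 fell, and the subunits of 1 initiation complex went both ways, with *eif-3.I* at 1.32, *eif-3.E* at 0.95 and *eif-3.G* at -0.54 (adjusted p = 0.0149 without replicate 2 of 3 days and 0.0175 without replicate 1 of 10 days). *ife-3*, the cap-binding protein of the germ line, rose by 0.58 (adjusted p = 0.0429 after cyclic loess). Of 33 proteasome subunits 1 rose, *rpt-6* (0.52, adjusted p = 0.00744), and 1 fell, *rpn-6.2* (-0.57, adjusted p = 0.00763), and each was lost in at least 5 of the 6 fits without an array. The medians of the translation factors (0.09), proteasome (0.18), cytosolic chaperones (0.10) and histones (0.12) all turned negative after cyclic loess. The histone variant *his-72* was the 1 of 26 histone genes that rose (0.65).

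Nuclear hormone receptors, F-box A proteins and transthyretin-like proteins are large families in worms. Of 254 nuclear hormone receptors, 7 fell (2.76%) and 4 rose (1.57%), both below the shares of all genes, and 193 had means under 1.5 at both times. *nhr-114*, which protects the germ line on some diets, fell from 4.45, 4.28 and 4.33 to 1.16, 1.55 and 1.25, and *nhr-8* by 1.5 on the log2 scale, while *nhr-154* rose by 1.03. Of 171 F-box A proteins, 19 rose and 1 fell, and 141 had means under 1.5 at both times. Their share of rises was only a little above that of all genes. Their share of falls was below that of all genes, but near the floor a fall could hardly be read. *fbxa-120* rose by 2.14, *fbxa-145* by 1.38 and *fbxa-107* by 1.27, and *fbxa-72* fell from 4.75, 4.12 and 4.47 to 0.70, 0.91 and 1.24. The rises numbered 10 and 9 without replicates 1 and 2 of 3 days and 11 and 10 without replicates 2 and 3 of 10 days. Of 40 transthyretin-like proteins 8 rose (20.0%) and 6 fell (15%), both above the shares of all genes, such as *ttr-26* (3.84), *ttr-51* (1.5), *ttr-2* (1.15) and *ttr-14* (-2.83), with 5 rises without replicate 1 of 3 days.

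The study listed genes that differed between the *L. rhamnosus* strains at 3 days, most of them higher on CNCM I-3690. The adjusted p-values printed with that list all lie above the threshold used for calls here, so its genes were chosen less strictly. Since that list was chosen on the same 3-day arrays, it is not independent of their level, and the counts here are a description. Of the 22 genes of the list read here, 12 fell by 10 days, 1 rose and 9 did not pass, while 7.74% of all genes fell and 8.46% rose. *fat-7*, given above among the lipid genes, was 1 of the falls (-4.37). *rips-1* was at 5.51, 5.85 and 5.07 and then at 2.35, 2.14 and 1.74, *ZK593.3* changed by -2.61, *T04F3.1* by -2.32, *W03D8.8* by -2.2 and *C06A12.3* by -0.99. *hsp-12.3*, a small heat shock protein, changed by -0.82, a call lost without replicate 2 of 3 days or of 10 days (adjusted p up to 0.0152). The galectin *lec-11* was at 5.41, 5.44 and 4.71 and at 5.55, 5.45 and 5.35 (0.27, adjusted p = 0.382), and the saposin-like *spp-16* at -0.42 (adjusted p = 0.0455). *pkhm-2* was the 1 that rose, by 0.71 (adjusted p = 0.00134, and 0.0557 after cyclic loess and 0.0111 without replicate 2 of 3 days).

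The change on CNCM I-3690 was then set against that on OP50, whose arrays are not shared with it. Across probe sets, which are not independent, both changes correlated with r of 0.777. Of the 3459 probe sets called on CNCM I-3690, 3269 had the same sign on OP50 and 749 were called there too. On OP50 alone 1.74% of probe sets rose and 2.28% fell. Replicate 1 of 10 days on OP50 stood apart, at 25.3 on the first component against 46.1 and 51, with muscle markers at a mean of 5.91 against 4.44 and 4.33. Without it, in a fit added after the data were seen, 2.16% rose and 3.09% fell on OP50, 945 of the 3459 were called there too, and r was 0.783. The count of rises among the genes described as induced by DAF-16 was then 14 on OP50, and 0 sperm genes fell there as before. Many sperm genes were already near the floor on OP50 at 3 days. The difference between the changes passed for 14 probe sets (0.0619% of those tested), 9 higher (0.0398%) and 5 lower (0.0221%) on CNCM I-3690, with 2974 (13.1%) at an unadjusted p under 0.05 and 183 (0.809%) at an adjusted p under 0.10. The number of calls was 184 without replicate 3 of 3 days of CNCM I-3690, 6 and 8 without replicates 1 and 2 of that group, and 9 and 7 without replicates 2 and 3 of 10 days. Among the OP50 arrays it was 8 without replicate 2 or 3 of 3 days, and 14, 6 and 8 without replicates 1, 2 and 3 of 10 days.

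Of the 14 probe sets, the largest difference was that of *ilys-2*, an invertebrate-type lysozyme. It was at 0.51 ± 0.29 (SD, n = 3) and 1.3 ± 0.28 at 3 and 10 days on CNCM I-3690, and at 0.65 ± 0.23 and 4.75 ± 0.37 on OP50. The difference of the changes was -3.30 (standard error 0.45, adjusted p = 0.00438 by limma). *cyp-35C1* went from 3.01 ± 0.16 to 5.96 ± 0.20 on CNCM I-3690 and from 4.16 ± 0.27 to 4.60 ± 0.29 on OP50 (difference 2.50, adjusted p = 0.000201), and its second probe set differed by 1.97. It began lower on CNCM I-3690 and ended higher. *cyp-35A3* was at 0.81 ± 0.17 and 2.93 ± 0.44 on CNCM I-3690 and at 0.95 ± 0.087 and 0.96 ± 0.24 on OP50 (difference 2.12, adjusted p = 0.00153).

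Of the other calls, *C14C6.5* fell on CNCM I-3690, from 5.6 ± 0.21 to 3.38 ± 0.34, and was at 5.19 ± 0.18 and 6.17 ± 0.47 on OP50, and its 2 probe sets differed by -3.21 and -3.10. Both fell on CNCM I-4317 as well, by 1.83 and 1.77 on the log2 scale. *haly-1*, a histidine ammonia lyase, changed by -3.05 and -1.34 on CNCM I-3690 and OP50, and *ugt-23* by -1.12 and 0.17. The collagen *col-106* changed less on CNCM I-3690 than on OP50, by -0.71 against -2.12. *H25K10.4* changed by 3.23 and 0.86, *Y110A2AL.9* by 1.73 and -0.39, *W01A11.1* by 1.5 and 0.51, and 1 probe set of *F08D12.3* by 1.09 and 0.01. The other 2 probe sets of *F08D12.3* did not pass, with differences of 0.75 and 0.06 (adjusted p = 0.306 and 0.904), and the mean over its probe sets did not pass either (adjusted p = 0.0806). A probe set without a gene symbol differed by 2.42. The calls of *ilys-2*, *haly-1*, *ugt-23*, *W01A11.1*, *F08D12.3*, *col-106*, *Y110A2AL.9* and of the second probe set of *C14C6.5* were lost in at least 2 of the fits without an array, while those of *cyp-35C1*, *cyp-35A3*, *H25K10.4* and the first probe set of *C14C6.5* were kept in all. On CNCM I-4317 all 14 probe sets changed in the same direction as on CNCM I-3690, from -2.39 for *haly-1* to 2.63 for the probe set without a symbol.

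**Figure D5:**
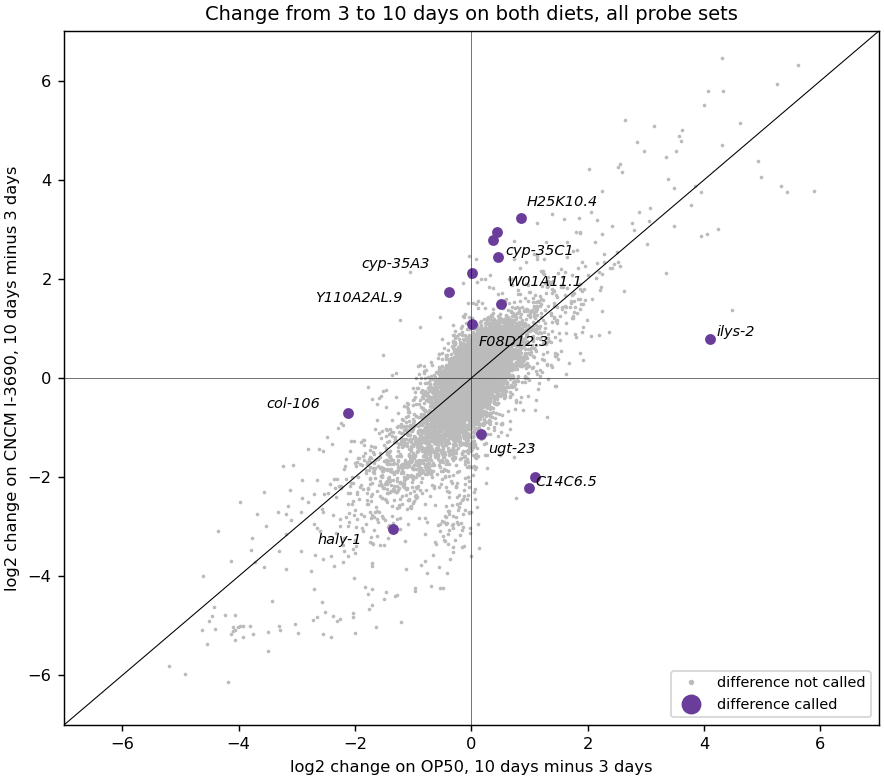
Change from 3 to 10 days on CNCM I-3690 (vertical axis, log2) against the change on OP50 (horizontal axis, log2), 1 point per probe set, with the 14 probe sets whose difference was called in purple and a diagonal line for equal changes. *ilys-2* lies far to the right of the line, and the 2 probe sets of *C14C6.5* fell on CNCM I-3690 and not on OP50.

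Against CNCM I-4317 the difference of the changes passed limma's test for 0 of 22625 probe sets (0.0%) at an adjusted p under 0.10, with 1228 (5.43%) at an unadjusted p under 0.05. The changes on both *L. rhamnosus* strains correlated with r of 0.905, and of the 3459 probe sets called on CNCM I-3690, 3431 had the same sign on CNCM I-4317 and 2005 were called there too. On CNCM I-4317 alone 6.82% of probe sets rose and 4.95% fell. Without replicate 3 of 3 days of CNCM I-3690, 3 probe sets passed at 0.01. The sperm genes had medians of -1.84 on CNCM I-3690, -1.12 on CNCM I-4317 and -0.26 on OP50, with 44, 31 and 0 that fell. At 3 days the median level of the list was already 1.76, 1.61 and 1.51 on OP50, near the floor. On CNCM I-3690 it was 4.51, 4.38 and 2.78. For many of these genes a fall on OP50 could therefore hardly be read. The difference from OP50 passed limma's test at an adjusted p under 0.10 for 2 of the 76.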

How the data were processed

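Total RNA of whole worms was hybridised to the Affymetrix GeneChip *C. elegans* Genome Array. The deposited values are log2 expression values per probe set. The authors made them with RMA and quantile normalization, which is meant to remove array-wide shifts between samples. A small shift remained, with CNCM I-3690 array medians of 1.38, 1.39 and 1.34 at 3 days and 1.28, 1.27 and 1.28 at 10 days. The values of all arrays ran from -0.064 to 12.0, with array medians of 1.27 to 1.40, and arrays carry no depth, so the number of arrays limits the precision. A linear model with 1 mean for each of 6 groups was fitted over the 18 arrays with limma 3.58.1 in R 4.3.3 (12 residual and 4.09 prior degrees of freedom), and p-values were adjusted by Benjamini-Hochberg over all 22625 probe sets. Calls were made at an adjusted p under 0.01, the threshold of the Methods. The difference of changes between diets was a contrast in the same fit.

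Gene symbols came from the platform annotation, and a match to RefSeq by gene ID changed none: 20766 probe sets had 1 symbol, 887 several and 972 none, and only those with 1 were named. A gene in several probe sets was read by 1. The genes named were the 15 largest rises and falls under the filter given above. They also included up to 5 called members of each list in its main direction and 2 in the other. The largest differences between diets and genes the study listed were named too. *gsp-3*, *gsp-4*, *nspd-4*, *myo-3*, *unc-54*, *end-1*, *end-3* and *sod-3* were chosen after their values were seen. The groups and gene lists were chosen with earlier results of these data known. Same-numbered arrays were not treated as pairs. Alternatives were other thresholds, arrays left out, median centring, cyclic loess, a filter on low values, other gene summaries and other variance settings. No sequences were used here.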

Additional observations from a re-analysis of the deposited data

Results flagged for a closer look

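The change from 3 to 10 days on CNCM I-3690 differed from that on OP50 for 14 probe sets (limma, adjusted p under 0.01), which are given here as the change on CNCM I-3690 minus the change on OP50. It was lower on CNCM I-3690 for *ilys-2* (-3.30), the 2 probe sets of *C14C6.5* (-3.21 and -3.10), *haly-1* (-1.71) and *ugt-23* (-1.29). It was higher for the 2 probe sets of *cyp-35C1* (2.50 and 1.97), a probe set without a symbol (2.42), *H25K10.4* (2.38), *cyp-35A3* (2.12), *Y110A2AL.9* (2.12), *col-106* (1.41), *F08D12.3* (1.08) and *W01A11.1* (0.99). *col-106* fell on both diets, and *haly-1* did as well.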

How the results depend on the processing

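The 3459 calls between 3 and 10 days became 5541 at an adjusted p under 0.05, 6748 under 0.10 and 1888 in probe sets without a suffix letter, and lay between 2054 and 3642 with 1 array left out. The 14 differences from OP50 became 42, 183 and 7 under the first 3 settings and 6 to 184 with 1 array left out, and the 0 differences from CNCM I-4317 became 0 to 3. The replicate block gave 3516 and 19 calls for the first 2 comparisons and 0 for the last. Same-numbered arrays of CNCM I-3690 deviated together with correlations of 0.0115 to 0.186 and those of all groups with -0.317 to 0.474. The highest was that of replicate 3 of both *L. rhamnosus* strains at 3 days. The numbers were not read as pairs, and whether same-numbered arrays share a source was not tested. Rises were 61.0% of the calls after median centring and 30.5% after cyclic loess, against 51.2%. The sign turned for *vit-2* (0.026), to -0.20 after cyclic loess and with a range of -0.0037 to 0.043 with 1 array left out. It turned for *sod-3* (-0.038), to 0.052 after median centring and with a range of -0.11 to 0.037, and for *end-3* (0.056), to -0.045 without replicate 2 of 3 days in a range up to 0.14. Of 220 called genes named here, 184 kept the call under every alternative run and 36 lost it under at least 1. The cause was not tested. The 3 arrays per group and dim probe sets near the floor limit what could be called.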
